A study of Astatotilapia calliptera and Haplochromis burtoni and Pundamilia nyererei with 40 samples.

Results

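Testes of Tropheops sp. 'mauve' (TM), a rock-dwelling cichlid of Lake Malawi, were set apart from testes of Astatotilapia calliptera (AC) and Maylandia zebra (MZ) by 58 of 28001 genes. Of these genes, 21 were higher and 37 were lower in TM testes. A gene was chosen as higher in TM where its lowest value among the 4 TM libraries was at least 5 CPM (a read count scaled to the library total) and at least 3 times its highest value among the 4 AC and 2 MZ libraries. It was chosen as lower in TM where the AC and MZ libraries stood above the TM libraries by the same margin. The genes were thus selected on their CPM in these 10 testes libraries, and these values are given as a description, without a test, and the shares chosen were 0.075% and 0.132% of all genes. CPM is compared here between libraries, for 1 gene or for the sum of a list of marker genes. The sums are not scaled to gene length, so that a gene's part in a sum is a share of reads. Levels of different genes are otherwise not compared in CPM.

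The study sequenced poly-A RNA from gonads and brains of African cichlids to follow transposable elements (TEs) and the small RNAs that silence them. The libraries used here came from wild-type fish: TM testes (4), AC testes (4), MZ testes (2), AC ovaries (4), AC female brains (3) and AC male brains (3). AC and TM fish were grown in aquaria with fish of their own species, whereas the MZ fish were dominant adult males, bred in captivity and bought from a supplier. Replicates of an organ were taken from size-matched fish of 1 species, and the ages of AC and TM fish are not given in the sources used here.

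A cichlid testis holds germ cells that pass from spermatogonia through meiosis to flagellated sperm, together with Sertoli cells that enclose them and interstitial cells that make androgens. The testis is known for transcribing a broader range of genes than most organs, among them genes named for their part in nerve, muscle or immune cells. In bulk tissue, fewer cells of a type and less RNA per cell cannot be told apart.

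The 10 testes libraries held 23631390 to 26742599 counts each and the 4 AC ovaries 20973400 to 24623358. Spermatogonial, meiotic, spermatid and Sertoli markers were detected in the testes of all 3 species, with overlapping summed levels for the meiotic list (TM 670.5 to 1078, AC 552 to 1578, MZ 361 to 1977 CPM) and the Sertoli list (TM 232 to 283, AC 223 to 275, MZ 276 to 439 CPM). The 5 oocyte markers were read in all these testes as well, with overlapping sums (TM 2764 to 3657, AC 2152 to 3416, MZ 2398 to 3713 CPM). Sums hide single markers. Against AC testes, the meiotic gene msh4 was lower in TM testes (14.9 to 23.5 against 25.2 to 40.5 CPM). The spermatid gene tekt3 was higher (8.10 to 19.9 against 1.19 to 5.15 CPM). Against MZ testes, the Sertoli genes inha (34.0 to 40.3 against 65.1 to 91.5 CPM) and cldn11a (35.6 to 54.6 against 54.9 to 92.5 CPM) were lower. Each overlapped with the remaining species. Replicates differed by more than sampling noise, the closest being TM testes 1 and 3 (chi-square per degree of freedom 6.87) and TM testes 2 and 4 (26.7), against 38.2 to 62.4 for the other TM pairs. AC ovary 1 stood apart, with 361 to 477 against the other ovaries, which differed among themselves by 65.3 to 129. Most counts and fold changes that rest on the ovaries are therefore also given without it. Medians of TPM, ratios of pooled ovary counts and counts of gene lists are given with all 4 ovaries only. The sources used here do not say whether any of the TM libraries came from the same fish.

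Some markers of other cell types moved with the TM libraries. The summed level of 11 immune genes was 71.1 to 88.4 CPM in TM testes, 109.6 to 469.6 in MZ testes and 611 to 1279 in AC testes. Most of that gap lay in lcp1, an actin-bundling protein of white blood cells (TM 1.13 to 1.95, AC 433 to 578, MZ 1.2 and 237 CPM), and in cd74b, a chaperone of antigen presentation (TM 52.6 to 65.3, AC 36.4 to 784, MZ 70.5 to 126 CPM). The common leukocyte antigen ptprc was at 3.97 to 7.48 CPM in TM testes, 3.81 to 36.0 in AC testes and 19.3 to 64.3 in MZ testes, and the integrin itgb2 at 5.69 to 8.29 CPM in TM testes, higher but at most 11.7 in AC testes and 12.3 to 26.5 in MZ testes. The rest of the immune list did not run lower in TM testes as a whole. Ranges of coro1a, csf1ra, spi1b, mpx and LYZ overlapped between TM and AC testes, and all but mpx overlapped between TM and MZ testes. For mpx, TM testes held 0.164 to 0.786 CPM and MZ testes 0.935 to 1.59. The genes named MPEG1 were at 0.794 to 1.63 and 0.251 to 0.691 CPM in TM testes, against 0.423 to 0.819 and 0 to 0.0423 in AC testes. Both overlapped with MZ testes, at 0.823 to 1.95 and 0.299 to 0.651 CPM. Of the other lists, 6 endothelial genes summed to 20.3 to 28.4 CPM in TM testes and at least 36.8 in every AC and MZ library. Among them, cdh5, tie1 and egfl7 were lower in every TM library, whereas kdrl and pecam1 overlapped with AC testes and vwf with MZ testes. The 13 pancreas genes summed to 60.2 to 75.9 against at least 102.0 CPM, nearly all from 2 genes named CPA1. The 7 intestine genes summed to 12 to 14.3 CPM against at most 10.4, mostly from anpepb, and the 8 nerve and glia genes to 200.3 to 268 in TM testes, 70.8 to 107 in AC and 135 to 217 in MZ, almost all from the myelin gene plp1a, with elavl3 and gfap at or under 0.398 CPM in every testis. The part of these cell types in the values below was not tested.

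**Figure D1:**
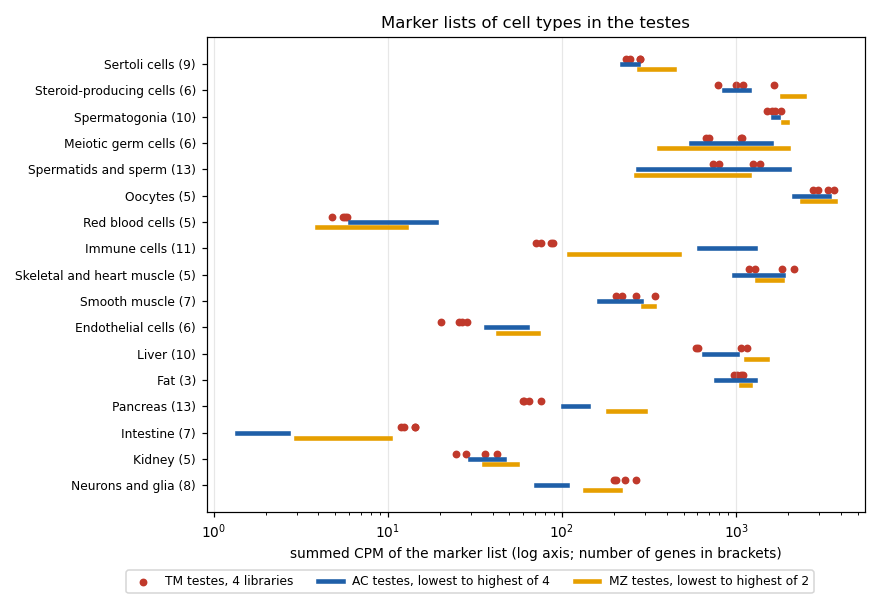
Summed CPM of marker lists of cell types (log axis) in TM testes (1 red point per library), AC testes (blue, lowest to highest of 4) and MZ testes (orange, lowest to highest of 2). The 4 TM libraries lie below all AC and MZ libraries for the immune, endothelial and pancreas lists and above them for the intestine list, while the meiotic, spermatid and Sertoli lists overlap.

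Among the 21 genes higher in TM testes, 14 had a gene name. They included 3 solute carriers, an enzyme of androgen conversion and an enzyme of serotonin synthesis. The ratio of the lowest TM value to the highest AC or MZ value, called the separation below, ran from 3.10 to 120. The AC and MZ libraries were all under 5 CPM for 12 of the 21 genes and under 1 CPM for 2.

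slc22a7a, an organic anion transporter on chromosome 6 (bases 36613287 to 36636844), had 10, 13.4, 12.1 and 13 CPM in TM testes 1 to 4, 0.0846, 0.159, 0.273 and 0.0795 CPM in AC testes 1 to 4, and 0.299 and 0 in MZ testes 1 and 2. It was thus close to absent from AC and MZ testes, and the separation of 33.4 was the largest of a named gene in this direction. slc9a5, a sodium/proton exchanger, reached 20, 37.6, 28.4 and 33.6 CPM in TM testes against 0.719, 1.59, 2.65 and 1.87 in AC and 0.0748 and 0.203 in MZ testes. The cystine/glutamate antiporter slc7a11 had 19.8, 17.8, 21.8 and 30.0 CPM in TM testes, at most 3.31 CPM in AC testes and at most 0.337 in MZ testes. For both exchangers the AC libraries lay between those of MZ and TM. The 439 solute carriers in the table contributed 3 genes to the higher and 2 to the lower group.

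srd5a2a encodes a steroid 5-alpha-reductase, which turns testosterone into a more potent androgen in vertebrates. Its 4 TM libraries, 43.1, 44.0, 38.9 and 46.0 CPM, had a mean of 43.0 ± 2.96 (SD, n = 4). The AC libraries held 8.0, 7.18, 5.65 and 6.88 CPM and the MZ libraries 0.935 and 1.71 CPM. The gene therefore stood at 3 levels, with no overlap between species. It was the only one of 22 measured genes of steroid hormone synthesis in the list used here that belonged to the 58. Among the markers of steroid-producing cells, 2 were lower in every TM library, short of the margin of 3 times. cyp11c1 had 1.55 to 8.29 CPM in TM testes, 12.1 to 18.2 in AC and 20.9 to 30.6 in MZ testes, and hsd11b2 had 19.6 to 44.6, 45.8 to 78.2 and 75.6 to 91.0 CPM. The other markers of this list overlapped with AC or MZ testes.

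tph1b, a tryptophan hydroxylase that starts serotonin synthesis, had 10.2, 9.36, 9.21 and 22.2 CPM in TM testes, 0.592, 0.279, 0.624 and 0.596 in AC testes and 0.0748 and 0.447 in MZ testes. TM testes 4 was far above the other 3 TM libraries, all of which still lay above every AC and MZ library. endouc, a member of the EndoU family of RNA-cutting enzymes, had 121, 196, 100.0 and 152 CPM in TM testes, but MZ testes 1, with 29.0 CPM, was well above MZ testes 2 (5.65) and the AC testes (2.16 to 8.23). Of the 41 cytochrome P450 genes, cyp2n13 was chosen, with 6.87 to 10 CPM in TM testes and 0.486 to 1.67 in the others. Another 3 genes carry the name cyp2n13, and all 3 were at or under 0.159 CPM in every testis.

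Of a list of 127 synaptic and neuronal genes, 0 belonged to the 58, while the members ntrk2a, RAB26, eno2 and dner, which are not on it, have known roles in neurons. ntrk2a, a receptor for brain-derived neurotrophic factor on chromosome 12 (bases 15587765 to 15701348), had 72.5, 87.6, 64.1 and 44.3 CPM in TM testes, 4.87, 2.51, 4.02 and 3.10 in AC testes and 2.73 and 4.60 in MZ testes. RAB26, a small GTPase of secretory and synaptic vesicles, had 38.6, 40.6, 35.0 and 36.0 CPM in TM testes against 0.677, 1.08, 1.25 and 0.835 in AC and 0.673 and 2.07 in MZ testes. For both genes MZ and AC testes overlapped at low values and TM testes stood alone. eno2, the enolase of neurons, had 18.8, 27.4, 19.9 and 20.6 CPM in TM testes, at most 1.99 CPM in AC testes and up to 5.33 in MZ testes. The Notch ligand-like gene dner was the nearest to the threshold, with 6.38, 5.22, 8.39 and 8.53 CPM in TM testes, a highest AC value of 1.27 and MZ values of 1.68 and 0.488. RAB26 and eno2 each have another gene of the same name, at 3.46 to 8.96 and 0.203 to 0.708 CPM in TM testes, which was not chosen. For the other eno2 copy, AC and MZ testes held 0.797 to 22.3 CPM, so that it was lower in all 4 TM libraries. Reads that match both copies of a gene could be split between them in counting, and the values of genes with shared names are uncertain to that extent.

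Of the remaining named genes, the fast-muscle troponin gene TNNI2 had 40.5, 40.6, 34.1 and 86.5 CPM in TM testes, 0.716 to 2.22 in AC testes and 5.68 and 5.08 in MZ testes. Of the 5 skeletal and heart muscle markers, myoglobin (mb) overlapped between species, at 1177 to 2137 CPM in TM testes, 972 to 1856 in AC and 1317 to 1827 in MZ testes, and the other 4, tnnt3a, ckma, ACTA1 and mylpfb, were each at or under 2.71 CPM in every testis. The other 2 genes named TNNI2 were at or under 0.904 CPM in all 10 testes. dachc, a dachshund-type transcription factor, had in TM testes 45.4, 46.5, 43.7 and 47.6 CPM, above 3.77 to 9.36 in AC and 13.6 and 11.3 in MZ testes. SYDE2 had 7.03 to 11.1 CPM in TM testes and at most 1.46 CPM in the others.

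The widest separation in this direction, 120, belonged to ENSACLG00000012384, a gene without a name. It had 234, 288, 239 and 247 CPM in TM testes against 1.95, 0.797, 0.702 and 1.91 in AC and 1.05 and 1.59 in MZ testes. ENSACLG00000024597 had 35.1, 33.6, 29.4 and 20.4 CPM in TM testes and at most 1.32 CPM in AC and MZ testes. It was not confined to TM gonads, since AC ovaries 1 to 4 held 231.5, 0.0814, 12.4 and 0 CPM. ENSACLG00000014080 had 199, 170, 194 and 181 CPM in TM testes and 0 to 0.199 CPM in AC testes, while MZ testes 1 and 2 held 0.0374 and 15 CPM and AC ovary 4 held 29.4 CPM. For these 2 genes, single libraries of the other groups were therefore far above their own group.

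**Figure D2:**
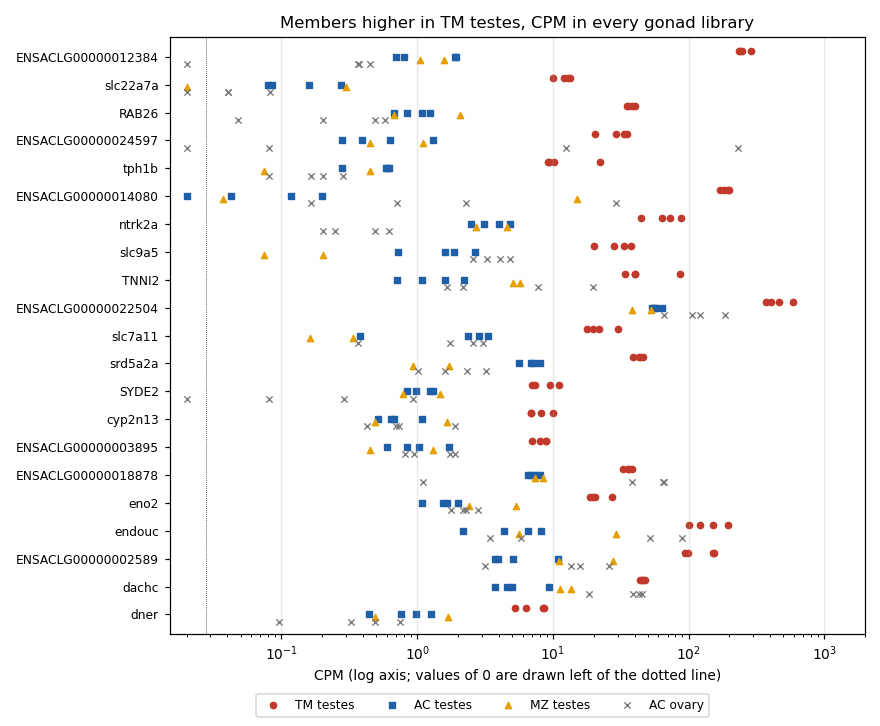
CPM (log axis) of the 21 genes higher in TM testes in TM testes (red circles), AC testes (blue squares), MZ testes (orange triangles) and AC ovaries (grey crosses), 1 symbol per library, ordered by separation. TM libraries lie to the right of all AC and MZ testes for each gene, as the choice of genes required, and single ovary or MZ libraries of ENSACLG00000024597 and ENSACLG00000014080 lie far from their group.

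Among the 37 genes lower in TM testes, 22 had a name, and they included receptors, adhesion proteins, transporters and phosphatases. All 4 TM libraries were under 1 CPM for 11 of the 37 genes, and 4 genes had at least 1 TM library without a read. The separation, here the lowest AC or MZ value over the highest TM value, ran from 3.10 to 605, and it was at least 100 for 6 genes, against 1 gene among those higher in TM.

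smyd1a, which encodes a SET and MYND domain methyltransferase known from muscle, was the named gene with the widest separation, 265. It had 0.0813, 0.0836, 0.0411 and 0.0393 CPM in TM testes, 38.7, 40.6, 22.2 and 41.8 in AC testes and 40.2 and 33.1 in MZ testes. The TM libraries held 6 reads in all, and the ratio of the pooled CPM was 591 (exact 95% interval 271 to 1611, which covers counting error only). smyd1a lies on chromosome 7 (bases 37284317 to 37292528), and its neighbour dqx1, 0.3 kb away, had overlapping values of 96.1 to 111 CPM in TM testes and 57.1 to 116 in the others. The other nuclear genes were milder: thrap3a, tied to transcription and splicing, had 2.72, 2.51, 2.22 and 1.81 CPM in TM testes against 12.9 to 25.8, and KCTD1, a transcriptional repressor, had 6.10, 1.17, 5.80 and 1.42 CPM against 25.4 to 54.4. In KCTD1, TM testes 1 and 3 were above TM testes 2 and 4, the pairs that were closest to each other across all genes.

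Of the receptors and ligands, cnr2, a cannabinoid receptor found on immune cells in mammals, had 1.02, 0.961, 0.905 and 0.943 CPM in TM testes. The AC testes ran far apart at 17.5, 83.0, 48.3 and 27.6 CPM, and the MZ testes held 10.8 and 11.1 CPM. il11a, a cytokine that signals through gp130, had 1.38, 0.710, 1.07 and 0.393 CPM in TM testes and 12.1 to 23.0 CPM in AC and MZ testes. It was the only one of 59 genes for cytokines, chemokines and their receptors that was chosen. avpr2aa, a vasopressin receptor, had 1.30, 1.38, 1.32 and 0.275 CPM in TM testes and 8.50 to 15.9 CPM in the others. kitb, a copy of the Kit receptor that mammalian spermatogonia need, had 4.80, 5.89, 5.39 and 3.26 CPM in TM testes, 85.1, 54.6, 51.6 and 52.2 in AC testes and 38.8 and 33.0 in MZ testes. kitb was thus present in all 3 species and lower in TM testes by a separation of 5.60. The summed spermatogonial markers overlapped between TM (1499.7 to 1809 CPM) and AC testes (1633 to 1745 CPM) and were higher in MZ testes (1852 to 1968 CPM). The sum hides single markers. piwil2 was lower in every TM library, at 204 to 238 CPM against 253 to 300 in AC and 250 to 299 in MZ testes. nanos2, at low counts, was lower too, at 0.314 to 0.528 CPM against 0.550 to 0.663 in AC and 0.598 to 1.63 in MZ testes. A gene named piwil1 (ENSACLG00000005074) was higher in every TM library, at 2.63 to 3.26 CPM against 0.239 to 0.795 in AC testes. The other markers of this list overlapped with AC or MZ testes.

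Of the adhesion genes, HEPACAM, an immunoglobulin-type protein of liver and glia, differed among all 3 species. It had 0.650, 0.501, 0.781 and 0.825 CPM in TM testes, 139, 123, 50.9 and 133 in AC testes and 5.80 and 8.05 in MZ testes. The integrin gene ITGA6, a laminin receptor subunit, ran the other way between the last 2 species, with 0.732, 0.961, 0.740 and 0.354 CPM in TM testes, 9.52, 36.9, 23.0 and 13.1 in AC testes and 77.8 and 70.0 in MZ testes. AC and MZ testes did not overlap in either gene. sema7a, a membrane-anchored semaphorin named here after its values were seen, had 0.935, 3.13, 1.03 and 2.59 CPM in TM testes and 10.6 to 37.6 CPM in the others, with TM testes 1 and 3 this time below 2 and 4.

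The transporters lower in TM testes were SLCO1C1, a carrier of thyroid hormone, and slc1a6, a glutamate transporter of cerebellar neurons in mammals. SLCO1C1 had 1.18, 0.752, 0.576 and 0.904 CPM in TM testes against 8.21 to 27 CPM in AC and MZ testes. A second gene named SLCO1C1 was lower as well, at 0.206 to 0.393 against 1.2 to 2.3 CPM, under the level of 5 CPM that the choice required. slc1a6 stayed well detected in TM testes, at 6.83, 5.60, 7.73 and 5.90 CPM against 48.6 to 114 CPM.

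Of the other enzymes and regulators, styxl1, a phosphatase relative without catalytic activity, had 0.406, 0.167, 0.288 and 0.197 CPM in TM testes and 8.23 to 26.4 CPM in the others, a separation of 20.2. hdhd2, of the haloacid dehalogenase-like hydrolases, had 2.93, 2.01, 2.92 and 2.12 CPM against 25.3 to 42.3. rell1, a relative of TNF receptors, had 1.81 to 2.24 CPM against 15 to 29.8. rnf213b, the only one of 126 TRIM and RING ubiquitin ligase genes chosen, had 5.15 to 8.51 CPM against 33.8 to 67.7. zgc:172122 had 1.14 to 1.55 CPM against 6.88 to 16.9. The melanosome gene oca2, also named after its values were seen, had 1.38, 2.01, 1.73 and 1.65 CPM in TM testes against 7.92 to 25.2 CPM.

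The widest separations of all, 133 to 605, included genes without a name. ENSACLG00000004833 had 0.0406, 0, 0.0411 and 0 CPM in TM testes, which is 2 reads in 4 libraries. It had 52.5, 24.9, 39.3 and 37.4 CPM in AC testes and 132 and 320 CPM in MZ testes. The ratio of pooled CPM was 4962 (exact 95% interval 1373 to 40973 for counting error only), with AC and MZ testes pooled although they did not overlap. ENSACLG00000013873 had 0.163, 0, 0.0822 and 0.0393 CPM in TM testes and 47.3 to 68.3 CPM in the others. ENSACLG00000027728 had 1 read in the 4 TM libraries against 9.35 to 30.1 CPM, a pooled ratio of 1892 (339 to 74769). These genes were at the limit of detection in TM testes and read by every AC and MZ library. TM and MZ reads were mapped to the AC genome, so that sequence differences or a missing gene could lower TM counts. The part of this in the values near 0 CPM was not tested.

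**Figure D3:**
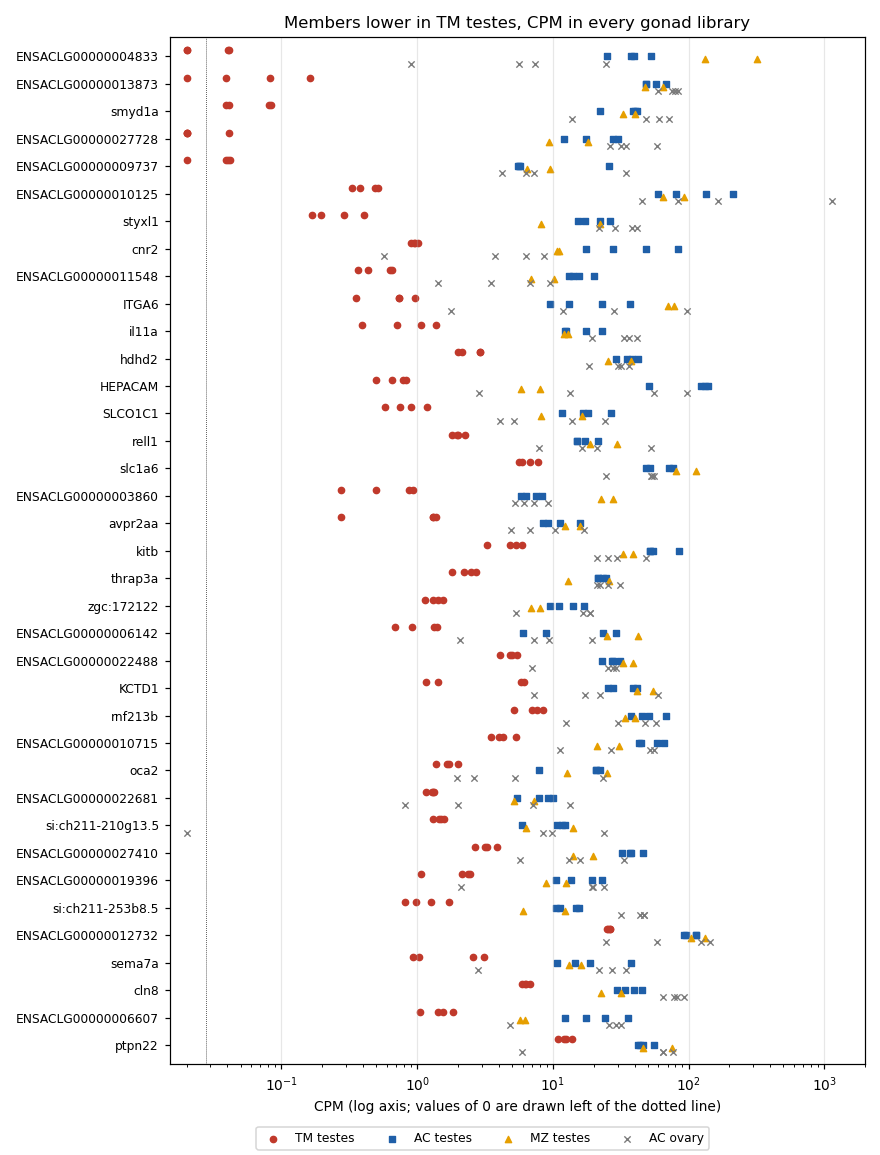
CPM (log axis) of the 37 genes lower in TM testes, with symbols as in the plot of the higher genes and values of 0 drawn left of the dotted line. In the top 6 genes the TM libraries lie at or below 0.511 CPM, and the AC and MZ testes overlap for 24 of the 37 genes.

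At the threshold, the 3 genes just inside for higher in TM were dner (separation 3.10), dachc (3.20) and ENSACLG00000002589 (3.41), and those just outside were ENSACLG00000005029 (2.99), loxl3b (2.92) and TENM2 (2.83). For lower in TM, ptpn22 (3.10), a phosphatase of lymphocytes, ENSACLG00000006607 (3.13) and cln8 (3.32), a receptor of transport from the endoplasmic reticulum, were just inside. C9orf64 (2.94), CPA1 (2.94) and ccdc33 (2.85) were just outside. The threshold thus cut through a continuous range. With TMM factors in place of library totals, TM values rose by 0.15 on the log2 scale against AC and MZ, the higher group grew to 27 genes, and the lower group held 33 genes, of which 32 were among the 37 and 1 was gained. The 5 lost were ENSACLG00000012732, sema7a, cln8, ENSACLG00000006607 and ptpn22.

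Leaving out a library can only loosen the rule, so that all 58 genes had to stay in the set and only its size could grow. Without MZ testes 1 the groups held 29 higher and 57 lower genes, without MZ testes 2 they held 32 and 47, and without TM testes 4 they held 31 and 47. Without both MZ libraries, 65 genes were higher and 137 lower in TM than in AC testes alone, an alternative chosen after seeing the data. The same rule applied to AC, with TM and MZ testes as the others, chose 36 genes higher in AC (0.129%) and 13 lower (0.0464%). HEPACAM was the 1 gene in both sets, lower in TM and higher in AC. Of 557 TE families put through the rule, 2 were higher in TM testes and 0 lower, both of the Gypsy type of LTR retrotransposon. The internal part of Gypsy-116 had 8.21 to 10.4 CPM in TM testes against 0.897 to 1.67, and the LTR of Gypsy-46 had 16.1 to 35.6 CPM against 0.254 to 4.49.

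In the genome, 23 of the 36 named genes had a single match by name in the RefSeq annotation of the AC assembly fAstCal1.2, and they lay on 15 chromosomes. The closest pair was thrap3a and cnr2, 0.539 Mb apart on chromosome 11 (thrap3a at bases 25765860 to 25788623, cnr2 at 26327707 to 26331682). Of the neighbouring genes, 0 of the 46 nearest named genes was itself a member, and 41 had overlapping values in TM testes and in AC and MZ testes. The other 5 were all lower in TM, such as naa35 beside ntrk2a (40.3 to 47.0 against 60.0 to 72.5 CPM). akirin1, 1.7 kb from cnr2, had 316 to 436 CPM in TM testes against 315 to 383.

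AC and MZ testes were then set against each other with edgeR's quasi-likelihood test and Benjamini-Hochberg adjustment over all genes and TE families. The values of these libraries had entered the choice of genes, so that the calls for the 58 genes are a description and no p-values are given. Of the 21 genes higher in TM, 5 were called higher in MZ than AC testes and 3 lower. Of the 37 genes lower in TM, 3 were called higher in MZ and 5 lower. Over all genes, 4.94% were called higher and 3.77% lower in MZ testes. The first count was 1 without AC testes 2 and 3 without AC testes 1, MZ testes 1 or MZ testes 2, and the last was 2 without either MZ library. The median log2 fold changes were 0.16 and -0.36 for the 2 groups and -0.0045 for all genes.

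The named genes with the widest differences in this contrast were HEPACAM, with a log2 fold change of MZ against AC testes of -4.01 (SE 0.45), and slc9a5, with -3.56 (SE 0.62). ENSACLG00000004833, at the limit of detection in TM testes, had 2.56 (SE 0.32), its MZ values being above those of all AC testes. slc7a11 had -3.08 (SE 0.79) and TNNI2 1.99 (SE 0.45), and for both genes the AC and MZ libraries did not overlap. ENSACLG00000014080 had 6.25 (SE 1.29), which rested on MZ testes 2 (15 CPM), and without that library it was -1.06.

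Of the lists with a member, solute carriers were called higher in MZ testes for 31 of 382 genes tested and lower for 20, which is 8.12% and 5.24%. Steroid synthesis genes were called higher for 3 of 21 and lower for 1, the latter being srd5a2a. Cytokine and chemokine genes were called higher for 5 of 43 and lower for 3, RING ligases for 3 and 5 of 119, and cytochrome P450 genes for 3 and 7 of 33. The shares called higher and lower were 14.3% and 4.76% for steroid genes and 11.6% and 6.98% for cytokine genes. They were 2.52% and 4.20% for RING ligases and 9.09% and 21.2% for P450 genes, against 4.94% and 3.77% of all genes.

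**Figure D4:**
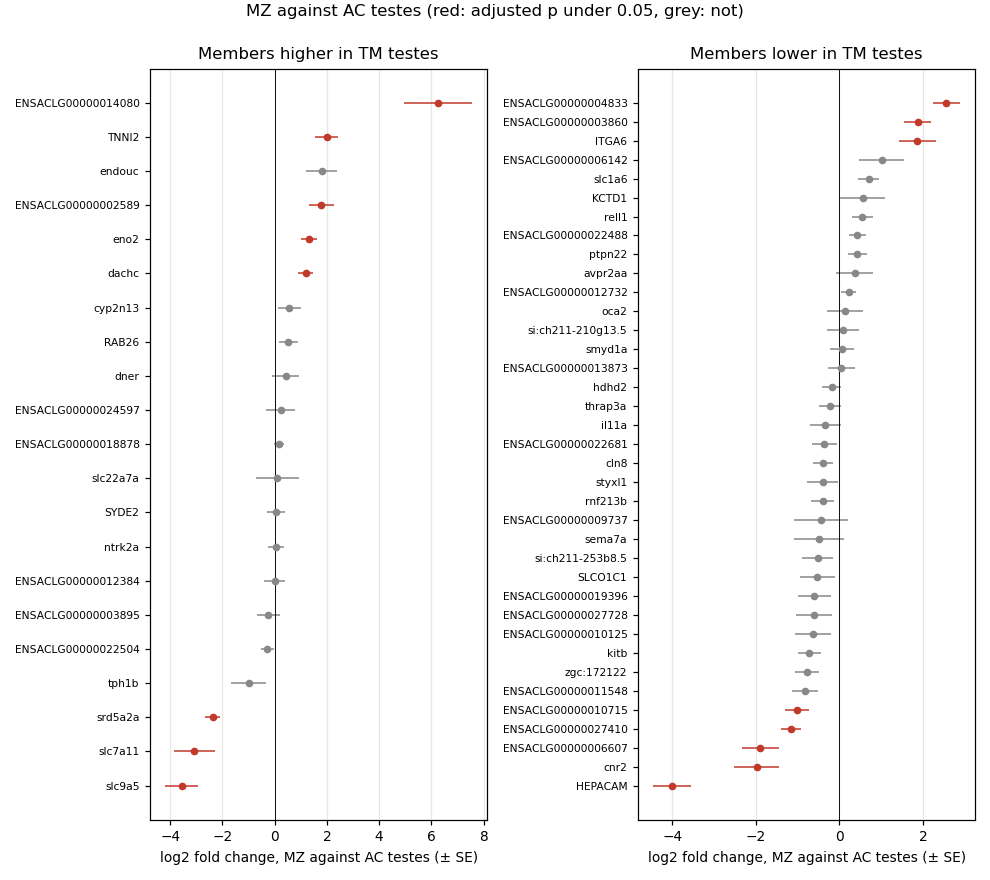
Log2 fold change of MZ against AC testes (± SE, edgeR) for the genes higher (left) and lower (right) in TM testes, with red for an adjusted p under 0.05. The values run from -3.56 to 6.25 on the left and from -4.01 to 2.56 on the right, and most genes, 13 and 29, are not called. Since these libraries entered the choice of genes, the colours describe the values and are no independent test.

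AC ovaries had no part in the choice of genes, but the testes values they are set against here had, so that the counts are a description. All 4 ovaries lay below all 4 TM testes for 18 of the 21 genes higher in TM, and overlapped for 3. Of the 11498 genes with at least 5 CPM in every TM library, 23.2% had ovaries below TM testes and 63.1% overlapped. All ovaries lay above all TM testes for 29 of the 37 genes lower in TM, and overlapped for 8. Of the 11157 genes with at least 5 CPM in every AC and MZ testis, 14.6% had ovaries above TM testes and 64.6% overlapped. Since the rule placed TM values high or low, nothing is read from the gap to these shares. The ovaries overlapped with AC and MZ testes for 16 and 33 genes, against 77.3% and 78.2% of the same 2 backgrounds. Without AC ovary 1, 19 of the higher genes lay below TM testes (25.5% of the background) and 34 of the lower genes above them (28.6%), and 15 and 29 overlapped with AC and MZ testes (66.2% and 67.0%). Ovaries of TM were not analysed here, so that species and organ both differ between AC ovaries and TM testes.

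AC testes were also set against AC ovaries in the same edgeR test, again as a description with no p-values, since AC testes values were low or at least 5 CPM by the choice of genes. Of the genes higher in TM, 18 passed the filter on low counts, with 2 called as higher in AC testes and 3 as higher in ovaries. All 37 genes lower in TM passed, and they had 2 and 3 such calls. Over all genes, the shares were 12.9% and 9.56%. Without AC ovary 1 the counts were 4 and 3 for the higher genes and 3 and 5 for the lower genes, and the shares of all genes were 19.0% and 17.6%. In the fits that each left out 1 AC testes library, at most 1 of the higher genes was called in each direction and 0 of the lower genes was called higher, with 8.35% to 11.6% of all genes called higher and 4.15% to 5.88% lower.

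ntrk2a had 0.620, 0.489, 0.248 and 0.203 CPM in the ovaries, below all AC testes, with a log2 fold change of testes against ovaries of 2.92 (SE 0.60) and of 3.49 without AC ovary 1. dachc had 18.6, 45.6, 38.9 and 43.3 CPM in the ovaries, above all AC testes, with -2.81 (SE 0.37) and -2.93 without AC ovary 1. In dachc, 3 of 4 AC ovaries thus reached values near those of TM testes. si:ch211-253b8.5 had 31.8, 47.1, 47.2 and 43.7 CPM in the ovaries, against 10.6 to 15.6 in AC and 0.813 to 1.71 in TM testes, with -1.87 (SE 0.26) and -1.85 without AC ovary 1. The values were 2.85 (SE 0.86) for cnr2, 1.52 (SE 0.48) for srd5a2a and -2.55 (SE 0.81) for ENSACLG00000018878, and 3.63, 1.81 and -2.98 without AC ovary 1. Of the lists with a member, cytokine and chemokine genes were called higher in testes for 1 of 40 and lower for 10, and steroid synthesis genes for 6 and 6 of 21. These are 2.5% and 25% of the cytokine genes and 28.6% and 28.6% of the steroid genes, against 12.9% and 9.56% of all genes. The list counts were made with all 4 ovaries only.

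The brain libraries of AC allowed a comparison with an organ outside the gonad, quantified as salmon estimated counts and as TPM, a scaled transcript level that accounts for gene length. Gonad and brain libraries were prepared in different places, so that organ and preparation cannot be told apart. By mean TPM, 15 of the 21 genes higher in TM testes were highest in a brain group, 5 in ovaries and 1 in testes. Of the genes with at least 5 CPM in every TM library, 32.3% were highest in a brain group, 27.6% in ovaries and 40.1% in testes. The median of the mean TPM was 1.02 in AC testes, 1.13 in ovaries and 8.99 in female and in male brains. The 37 genes lower in TM testes were highest in testes for 14, ovaries for 12 and brains for 11, with medians of 19.2, 17.7, 9.32 and 10.2 TPM in testes, ovaries, female and male brains. Of the genes with at least 5 CPM in every AC and MZ testis, 39.8% were highest in testes, 27.7% in ovaries and 32.5% in brains. All 6 brains lay above all 8 gonads for 8 of the higher and 3 of the lower genes, and below them for 1 and 10. The shares of the same 2 backgrounds were 17.7% and 18.1% for brains above gonads and 26% and 26.5% for brains below. Without AC ovary 1, 14 of the higher and 10 of the lower genes were highest in a brain group (31.2% and 31.5% of the backgrounds). Those highest in ovaries were then 6 and 14 (36.6% and 36.8%), and those highest in testes 1 and 13 (32.3% and 31.7%). All brains then lay above the gonads for 8 and 3 genes (18.3% and 18.7%) and below them for 1 and 14 (42.7% and 43.6%). AC testes values entered the choice, and these counts are a description.

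eno2 measured 331 to 427 TPM in female brains and 223 to 352 in male brains, against 0.165 to 0.303 in AC testes and 0.406 to 0.545 in ovaries. dner measured 43.6 to 186 TPM in female brains and 0.150 to 0.432 in AC testes, and RAB26 22.1 to 78.0 and 0.419 to 0.864 TPM. These 3 genes were far above the gonads in every brain library, and their TM values were 18.8 to 27.4, 5.22 to 8.53 and 35.0 to 40.6 CPM, a scale that cannot be set against TPM.

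Tested between AC ovaries and female brains, neither of which entered the choice, 4 of 18 genes higher in TM were called higher and 10 lower in ovaries. Of the 37 genes lower in TM, 19 were called higher and 4 lower in ovaries. Over all genes 32.4% were higher and 35.4% lower in ovaries, and the corresponding shares were 22.2% and 55.6% of the 18 genes and 51.4% and 10.8% of the 37 genes. The choice had kept AC testes values low for the genes higher in TM and at or above 5 CPM for those lower. Ovaries of the same species may share such levels, which was not tested, so that nothing is read from the gap to these shares. Without AC ovary 1, the counts were 2 and 10 for the higher and 20 and 4 for the lower genes, with 36.4% and 37.3% of all genes. Log2 fold changes were -9.46 for dner (SE 0.57, edgeR adjusted p = 8.59e-09), -8.76 for eno2 (SE 0.43, edgeR adjusted p = 2.15e-09) and -8.10 for RAB26 (SE 0.58, edgeR adjusted p = 3.98e-08), and they were -9.29, -9.17 and -7.83 without AC ovary 1.

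In the other direction, ITGA6 had 2836 estimated counts over the 4 ovaries and 0 over the 3 female brains. It was about 400-fold higher in ovaries against a floor of 3 counts over the brain group. AC ovary 1 held only 0.288 TPM of ITGA6, against 7.78 to 63.5 in the other ovaries. ITGA6 passed the filter on low counts only through its gonad counts, so that its call is a description and no p-value is given. ENSACLG00000010125 was higher in ovaries at 8.29 (SE 1.52, edgeR adjusted p = 2.43e-04) and fell to 5.55 without AC ovary 1, which alone held 1144.5 CPM against 45.1 to 166 in the others. ENSACLG00000014080 had 1 estimated count over the female brains and a ratio of 347 (exact 95% interval 62.2 to 13739, for counting error only). This gene passed the filter on low counts only through its ovary counts, so that its call is a description and no p-value is given. Most of its ovary reads came from AC ovary 4 (81.8 TPM, against 0.317 to 5.34 in the others).

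AC testes and male brains were set against each other as a description, without p-values, since the choice had kept AC testes values low for the 21 genes and at or above 5 CPM for the 37. Of 18 genes higher in TM, 1 was called as higher in testes and 11 as higher in male brains, and the 37 genes lower in TM had 19 and 3 such calls. Over all genes, 32.5% were called in each direction, and nothing is read from the gap. The log2 fold changes of testes against male brains were -10.14 for eno2 (SE 0.45), -8.19 for dner (SE 0.53) and -6.92 for RAB26 (SE 0.54). cnr2 had 6.50 (SE 1.2), with 20.7 to 95.6 TPM in AC testes and 0.398 to 0.805 in male brains. ENSACLG00000004833 and ITGA6 had 1 and 3 estimated counts over the male brains, with ratios of 305 (54.6 to 12056) and 212 (72.5 to 1030.2).

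Male and female AC brains, which shared their preparation, were then compared. edgeR called 0% of all genes higher and 0% lower in male brains, with 564 genes at an unadjusted p under 0.05, and DESeq2 called 5 higher and 5 lower over all genes. Among the members, 0 of the 18 and 1 of the 37 had an unadjusted p under 0.05. With 3 brains a sex, smaller differences were not detectable here.

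**Figure D5:**
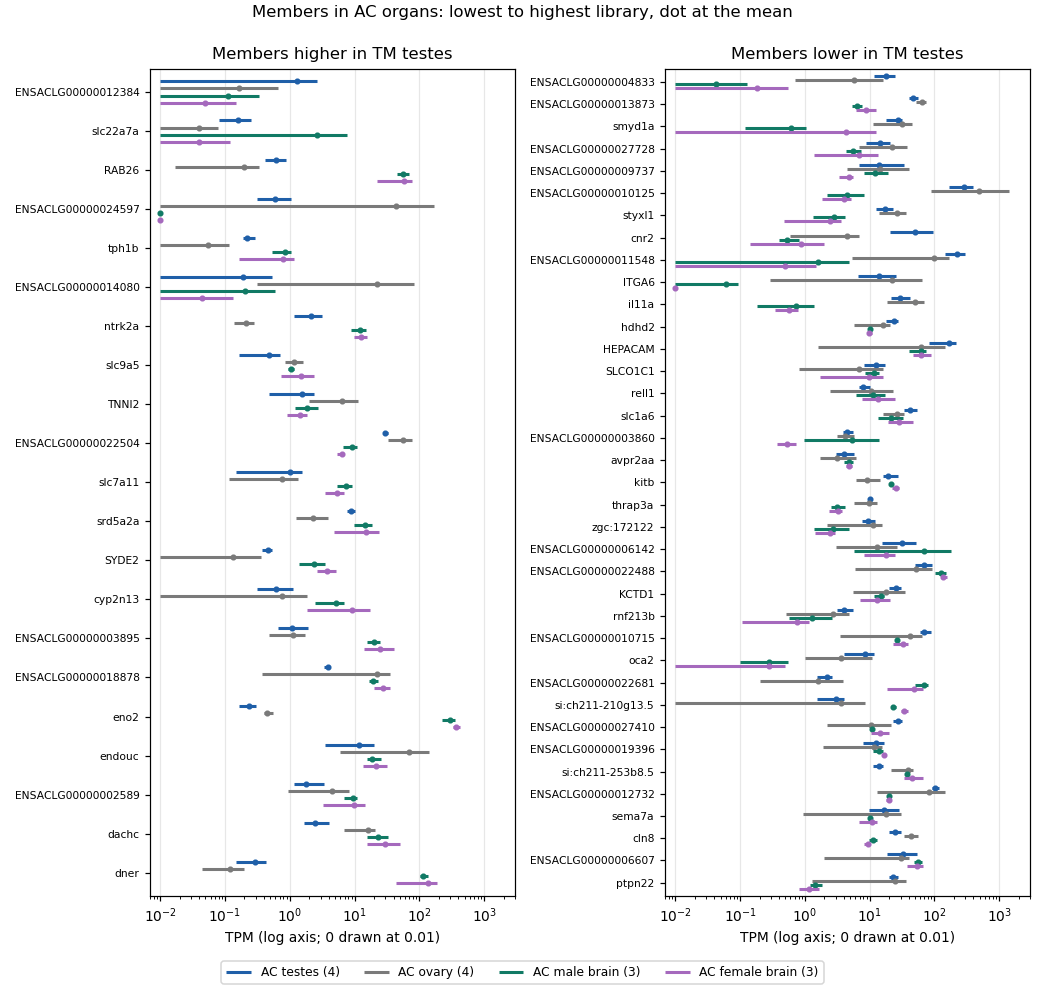
TPM (log axis) of the genes higher (left) and lower (right) in TM testes in AC testes (blue), AC ovaries (grey), AC male brains (green) and AC female brains (purple), drawn from the lowest to the highest library with a dot at the mean. On the left, brain values lie right of the gonads for eno2, dner and RAB26 among others; on the right, ITGA6 and il11a lie lower in all 6 brains than in all 8 gonads.

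No TM library was always the extreme. The highest TM value fell in TM testes 2 for 10 and in TM testes 4 for 7 of the 21 higher genes.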

How the data were processed

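The authors sequenced directional poly-A libraries, trimmed reads with Trimmomatic 0.39 and mapped TM, MZ and AC reads alike to the AC genome fAstCal1.2 with STAR 2.5.4b. They deposited raw counts per gene and TE family, made with TEtranscripts and a curated TE annotation, or an uncurated one for AC. For AC gonads and brains the authors also deposited estimated counts from Salmon 1.5.1 (expected counts, here rounded to whole numbers) and a TPM value per gene, treated here as a score because some genes are repeated in that table (1 entry per gene was kept). Sequence differences between TM or MZ reads and the AC genome could lower their counts, and their part in the results was not tested. The authors' normalized TE tables were not used.

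CPM was computed from counts and library totals of genes and TE families. The members and gene lists were chosen with earlier results of these data known, and patterns of some lists were corrected after the files were read, since they matched unrelated names. Contrasts were fitted in edgeR 4.0.16 (R 4.3.3; filterByExpr, TMM, robust quasi-likelihood test, Benjamini-Hochberg adjustment, call at 0.05), for MZ over the 10 testes, for AC testes and ovaries over 8 gonads, and for brains over 14 AC libraries. SE is the log2 fold change over the square root of F. The brain libraries held 6728130 to 19685495 estimated counts. The edgeR fits were tested on simulated data, in which 199 of 200 changed genes were recovered for AC testes against ovaries, 180 for MZ against AC testes and 197 for ovaries against brains. Each run also made 9 false calls. The changed genes were well counted, with a median absolute log2 fold change of 1.96 to 1.98, and every gene was given the same spread. These counts are therefore no measure of the power of the real contrasts. Alternatives were DESeq2 1.42.0, library totals, no filter, a replicate block, leaving out each library, the uncurated TE annotation, and other folds, floors and scalings of the rule. Intervals cover counting error only and leave out the spread between libraries and species. Those of the testes ratios are a description, since the genes were chosen on these values.

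Named genes were, in each direction, the 15 named and 3 unnamed members of widest separation, named members of the gene lists, those nearest the threshold of 3 with 3 genes outside it, and the 3 largest changes called in each direction of a contrast. Gene names came from the deposited TPM table and positions from RefSeq, matched by name. Replicates are labelled as separate samples, made from size-matched fish per the study; whether any libraries share a fish is not given, and p-values measure only the spread between these samples. Lists of ribosomal, proteasome, chaperone, channel, synaptic, cell cycle and other functions held no member. The lists were matched on gene names and can miss genes: that of G protein-coupled receptors held neither of the receptor genes cnr2 and avpr2aa.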

Additional observations from a re-analysis of the deposited data

Results flagged for a closer look

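In 17 of 174 groups of 4 gonad libraries of the 58 genes (13 genes), the highest or lowest library lay outside Dixon's 95% limit. That limit flags about 1 in 20 groups of independent, normally spread values. The groups here share libraries and some hold very few reads, so that nothing is read from the count of 17. In TM testes, library 4 was the highest for tph1b (22.2 CPM) and TNNI2 (86.5 CPM) and the lowest for avpr2aa (0.275 CPM), and library 3 was the highest for ENSACLG00000027728 (0.0411 CPM, 1 read) and the lowest for ENSACLG00000009737 (0 CPM, against 1 read in each of the other 3). In AC testes, library 2 was the lowest for tph1b (0.279 CPM) and the highest for ENSACLG00000009737 (25.8 CPM), library 3 was the lowest for smyd1a (22.2 CPM) and oca2 (7.92 CPM), and library 1 was the highest for kitb (85.1 CPM).

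In AC ovaries, library 1 was the highest for ENSACLG00000024597 (231.5 CPM) and ENSACLG00000010125 (1144.5 CPM) and the lowest for ENSACLG00000022488 (6.96 CPM). Library 2 was the highest for ENSACLG00000009737 (34.5 CPM) and library 3 for oca2 (23.4 CPM). Library 4 was the highest for ENSACLG00000014080 (29.4 CPM) and the lowest for slc1a6 (24.6 CPM).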

How the results depend on the processing

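Other settings of the rule gave 44 genes higher and 64 lower in TM testes at 2 times, 11 and 19 at 5 times, 51 and 80 at a floor of 1 CPM and 15 and 20 at 10 CPM. Each wider setting kept all 58 genes, as a looser rule must. DESeq2 size factors gave 27 and 33, as did TMM, and totals over genes alone 21 and 37. Leaving out 1 library gave 21 to 32 higher and 38 to 57 lower genes, and leaving out both MZ libraries, added after seeing the data, 65 and 137.

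For AC testes against ovaries, the genes higher in TM that were called higher in testes numbered 1 without the low-count filter, and those called lower 7 in DESeq2 and 5 without the filter. Genes lower in TM called higher in testes were 1 with library totals and 1 without the filter, and those called lower 5 in DESeq2. Of all genes, 17.7% were called higher and 15.7% lower in DESeq2. The shares were 12.7% and 6.92% with library totals, and 10.9% and 6.62% without the filter. Leaving out 1 library gave 1 to 4 and 1 to 6 for the higher genes, and 0 to 3 and 2 to 5 for the lower genes. These fits called 8.35% to 19.0% of all genes higher and 4.15% to 17.6% lower. For MZ against AC testes the corresponding ranges were 1 to 4, 2 to 3, 2 to 3 and 2 to 5, and ENSACLG00000014080 ran from -1.06 without MZ testes 2 to 7.23 without MZ testes 1. The ranges were 2 to 5, 8 to 10, 18 to 20 and 2 to 4 for ovaries against female brains, and 1, 8 to 10, 15 to 19 and 3 for testes against male brains, where DESeq2 called 5 genes lower in TM as lower in testes. Leaving out 1 library called 28.3% to 36.4% of all genes higher and 32.1% to 37.3% lower for ovaries against female brains. For testes against male brains, 27.3% to 30.6% were called higher and 29.1% to 31.2% lower, and DESeq2 called 37.8% lower. For MZ against AC testes, leaving out 1 AC library called 3.05% to 4.54% higher and 2.55% to 4.64% lower. DESeq2 scaling moved the median of all genes from -0.07 to -0.34 for ovaries and from 0.03 to -0.28 for testes against brains.

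Replicate numbers were not taken as pairs, since no contrast had every same-numbered pair above a correlation of 0.1: deviations of same-numbered samples correlated at -0.13 to 0.04 for AC testes and ovaries, -0.22 to -0.07 for AC and MZ testes, -0.04 to 0.04 for ovaries and female brains, -0.28 to 0.29 for male and female brains, and 0.05 to 0.06 for testes and male brains, where the 3 pairs were all positive. With a replicate block, 1 and 1 of the genes higher in TM and 0 and 1 of those lower were called higher and lower in AC testes than ovaries, and for MZ against AC testes 0 of the genes higher in TM were called higher and 1 of those lower was called lower. The block called fewer of all genes too, 7.94% higher and 3.53% lower in AC testes than ovaries. For MZ against AC testes it called 1.65% higher and 1.36% lower. Of the alternative values for single genes, 229 kept their call, 36 lost it and 1 reversed. ENSACLG00000014080 could not be tested for ovaries against brains without AC ovary 1, 2 or 4.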
